A study of Mus musculus with 12 samples.

Results

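Cholesterol and fatty acid synthesis was followed in mouse lung through 32 genes, taken by name from the 2 pathways and their control. They comprise 7 genes of the mevalonate steps, 9 of the sterol steps, 6 of regulation and sterol transport, 5 of acetyl-CoA and fatty acid synthesis and 5 of elongation and desaturation. All 32 had a probe on the array, and all 32 were well above background, by the scanner's own flag, on 12 of 12 arrays, so none was lost to the filter on dim probes. They are 32 of 19823 genes measured. RNA of whole lung was hybridised to single-colour (Cy3) Agilent arrays, from C57Bl/6 mice on 12 arrays, 4 in each of 3 groups and described by the labels as biological replicates. Wild-type mice (WT) breathed room air or cigarette smoke, and Rora mutants breathed smoke. Smoke came from a smoking machine burning 1R3F research cigarettes on 5 days a week for 4 months. All mice are labelled male and 12 weeks old, which is shorter than the smoke protocol, so the age at the end of exposure is not settled by the labels. The labels state neither the Rora allele nor the cells in which it acts, and mutants kept in room air were not analysed here, so a genotype difference present without smoke cannot be told apart from one that needs it. Levels are log2 values of the processed signal relative to the 75th percentile of each array, so a level of 0 is the signal at that percentile; they depend on the probe and are compared between arrays, not between genes.

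Cholesterol is built from acetyl-CoA through mevalonate and the isoprenoids to squalene, and then through lanosterol and a chain of demethylations, reductions and desaturations. Fatty acids start from the same acetyl-CoA through malonyl-CoA and fatty acid synthase, and elongases and desaturases then lengthen them and add double bonds. The SREBP transcription factors switch on both pathways: when membranes hold little sterol, the escort protein Scap carries SREBP to the Golgi for cleavage, and when sterol is plentiful the Insig proteins hold Scap and SREBP in the endoplasmic reticulum. In the lung, alveolar type 2 cells make fatty acids and phospholipid for surfactant, and alveolar macrophages take surfactant up. ROR-alpha, the protein of Rora, is a nuclear receptor of the circadian clock and of lipid metabolism that binds DNA at ROR elements.

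The labels were checked against the arrays first. Rora RNA, read by a probe on chromosome 9 (69177968 to 69178027, build mm8), was 1.08, 1.16, 1.08 and 1.09 on the room-air arrays, 1.15, 1.23, 1.20 and 1.16 in WT smoke and -0.95, -0.92, -1.14 and -1.04 in mutant smoke, a fall of 2.20 ± 0.06 log2 units (SE) between the 2 smoke groups. The mutant label thus matched the RNA on all 4 arrays; whether this probe lies in an altered part of the gene is not given in the sources used here. The sex label did not match in 1 group. Xist, the RNA of the inactive X chromosome, lay between 3.97 and 4.13 on the 4 room-air arrays and between -8.17 and -3.18 on the 8 smoke arrays. Uty, Kdm5d and Ddx3y, which lie on the Y chromosome, passed the scanner's background flag on none of the room-air arrays and on every smoke array. Sex-linked signal and smoke exposure therefore cannot be told apart in either comparison with room air. All 4 room-air arrays are alike in this, so neither of those comparisons can be made without such arrays. Between the 2 smoke groups 0 of 5 sex-linked genes passed in limma (1 at an unadjusted p under 0.05). Lung markers were present: all 12 alveolar type 2, 8 alveolar type 1 and 4 endothelial markers were well above background on all 12 arrays. The share of spots well above background was 70.1% to 74.8% per array, and correlations across genes were 0.994 to 0.997 between arrays of a group and 0.987 to 0.995 between groups.

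The promoters of the members were read from RefSeq (build GRCm38.p6), because many of these genes are textbook SREBP targets that share short promoter elements. The table held promoters of 25 of the 32 members, 33 in all, each from 250 bases before to 50 bases after a gene's start; Fdps, Fdft1, Sqle, Stard4, Scd1, Scd2 and Fads1 were not among them. The box of the factor NF-Y, searched as CCAAT on both strands, stood in 21 of the 33 member promoters (63.6%), against 37.4% of all 32851 promoters of the table. The GC box GGGCGG, a site of Sp1, stood in 24 of 33 (72.7%), against 35.7% of all. A sterol regulatory element, TCACNCCAC, was found in 1 member promoter, that of Hmgcs1 (3.03%, against 1.24% of all), and the SREBP site ATCACGTGA in 0 (0.317% of all). TAGGTCA, the core of the ROR element, was found in 2 overlapping promoters of Dhcr7, which hold the same site (6.06%, against 2.61% of all). Counted by gene, it stood in 1 of 25 members (4%), against 2.97% of all genes of the table. The matches are a description of letters within this window. Windows of 100 bases follow for the members called in smoke or with genotype whose promoters the table holds, and for Hmgcs1, which holds the sterol regulatory element; capitals mark NF-Y boxes, read as CCAAT or, on the other strand, ATTGG, and in Hmgcs1 also the element TCACCCCAC. For Hmgcs1 the window runs from base 177 to base 78 before the start; for the others it is the last 100 bases before it.
Hsd17b7 (chr1:169969206-169969305, minus strand): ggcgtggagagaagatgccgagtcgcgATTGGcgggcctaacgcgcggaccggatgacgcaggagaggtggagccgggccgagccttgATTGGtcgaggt
Cyp51 (chr5:4104698-4104797, minus strand): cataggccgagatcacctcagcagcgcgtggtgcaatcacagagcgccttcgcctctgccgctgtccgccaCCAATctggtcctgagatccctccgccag
Msmo1 (chr8:64733579-64733678, minus strand): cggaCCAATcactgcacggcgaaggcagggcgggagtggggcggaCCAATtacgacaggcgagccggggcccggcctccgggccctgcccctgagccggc
Lss (chr10:76531505-76531604, plus strand): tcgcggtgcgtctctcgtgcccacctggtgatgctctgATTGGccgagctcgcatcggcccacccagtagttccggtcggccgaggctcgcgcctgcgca
Fasn (chr11:120824548-120824647, minus strand): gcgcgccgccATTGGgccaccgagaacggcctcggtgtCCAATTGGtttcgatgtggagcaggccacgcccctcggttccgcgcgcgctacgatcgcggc
Idi1 (chr13:8885506-8885605, plus strand): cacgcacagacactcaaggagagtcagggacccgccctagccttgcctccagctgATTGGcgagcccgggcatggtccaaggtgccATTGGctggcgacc
Hmgcs1 (chr13:119690174-119690273, plus strand): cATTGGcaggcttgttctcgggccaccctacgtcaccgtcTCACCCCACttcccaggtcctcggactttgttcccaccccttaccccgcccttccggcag
Hsd17b7, Msmo1 and Idi1 carry 2 boxes each within these windows and Fasn carries 3, of which 2 overlap as CCAATTGG. Cyp51 and Lss carry 1 each. Not every called member has a box so close to its start: of those called in mutant smoke against room air and not shown, Insig1, Srebf2 and Acly have none in the last 100 bases before it.

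The first comparison, WT smoke against WT room air, asked which members went with exposure. It also carries the difference in sex-linked signal described above, which cannot be told apart from exposure. In smoke 30 of 32 members had a change below 0, with a median of -0.16 log2 units and a range of -0.55 to 0.09. Tested with limma across all genes, 4 members passed at an adjusted p under 0.05, all lower: Idi1 and Fdps of the mevalonate steps, Cyp51 of the sterol steps, and the desaturase Scd1. Of all 19823 genes 4.86% were called in this comparison, 2.55% lower and 2.31% higher. No member was called higher (0 also at an unadjusted p under 0.05, where 14 were lower). The share of all genes at that unadjusted threshold was not counted in any comparison, so unadjusted counts have no background beside them. The arrays of the groups did not overlap for 12 members that were lower and 1 that was higher, against 6.91% and 5.97% of all genes. The median change of all genes was -0.01. A slide block gave a member median of -0.16; slide by slide the medians were -0.14, -0.20 and -0.10. The count of 4 fell to 2 with the slide as a block, and to 2 without WT room air replicate 2 or 3 or without WT smoke replicate 2 or 3; a normexp background correction left 0.

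The second comparison set Rora mutants against WT under smoke and asked which members went with the genotype. Of the members, 6 were lower in the mutants (Idi1, Sqle, Lss, Msmo1, Hsd17b7 and Stard4), all of them on the cholesterol side, and 1 was higher, the fatty acid synthase Fasn. Over all genes 6.04% were called, 3.56% lower and 2.48% higher. The member median was -0.10, against 0.00 for all genes, with a range of -0.60 to 0.27; a slide block gave -0.10, and single slides -0.08, -0.10 and -0.11. By role, the median change was -0.07 over the mevalonate genes, -0.23 over the 9 sterol genes (all 9 below 0), -0.17 over regulation and transport, 0.00 over acetyl-CoA and fatty acid synthesis and 0.10 over elongation and desaturation. For the last of these the order depends on the summary, since its medians by array ran lower in the mutants, with ranges that overlapped WT smoke, as given with the plot of medians by role. Arrays did not overlap for 15 members that were lower and 2 that were higher, against 6.85% and 6.55% of all genes. The 6 lower calls became 1 without WT smoke replicate 1, 2 without mutant replicate 4, and 3 without mutant replicate 2, without WT smoke replicate 3 or with only the 2 smoke groups in the fit. Arrays of all groups shared slides, and a slide block ended the calls of Stard4 (adjusted p = 0.0588), Lss (adjusted p = 0.0676) and Fasn (adjusted p = 0.0662). Fasn lost its call in 14 of 24 settings, the omission of any 1 WT smoke array among them. A normexp correction left no call in either direction.

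Mutant smoke against WT room air adds both differences, so its changes are the sums of the other 2 and are no separate evidence. Like the first comparison, it also carries the difference in sex-linked signal of the room-air arrays. Along the whole sequence 17 of 32 members were lower and 0 higher (1 at an unadjusted p under 0.05, Insig2, where 22 were lower), with a median of -0.29 against -0.01 for all genes. The background was wider here too: 16.7% of all genes were called, 10.0% lower and 6.67% higher. The 17 comprised 3 of 7 mevalonate genes, 8 of 9 sterol genes, 4 of 6 genes of regulation and transport, 1 of 5 of acetyl-CoA and fatty acid synthesis (Acly) and 1 of 5 of elongation and desaturation (Fads1). A slide block gave a median of -0.28, and single slides -0.24, -0.28 and -0.25. Arrays did not overlap for 19 members that were lower and 0 that were higher, against 11.7% and 9.30% of all genes. Leaving out single arrays gave 15 to 18 lower members, and the normexp correction 4: Idi1, Sqle, Hsd17b7 and Stard4. In whole lung, fewer cells that make a transcript and less of it per cell cannot be told apart.

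**Figure D1:**
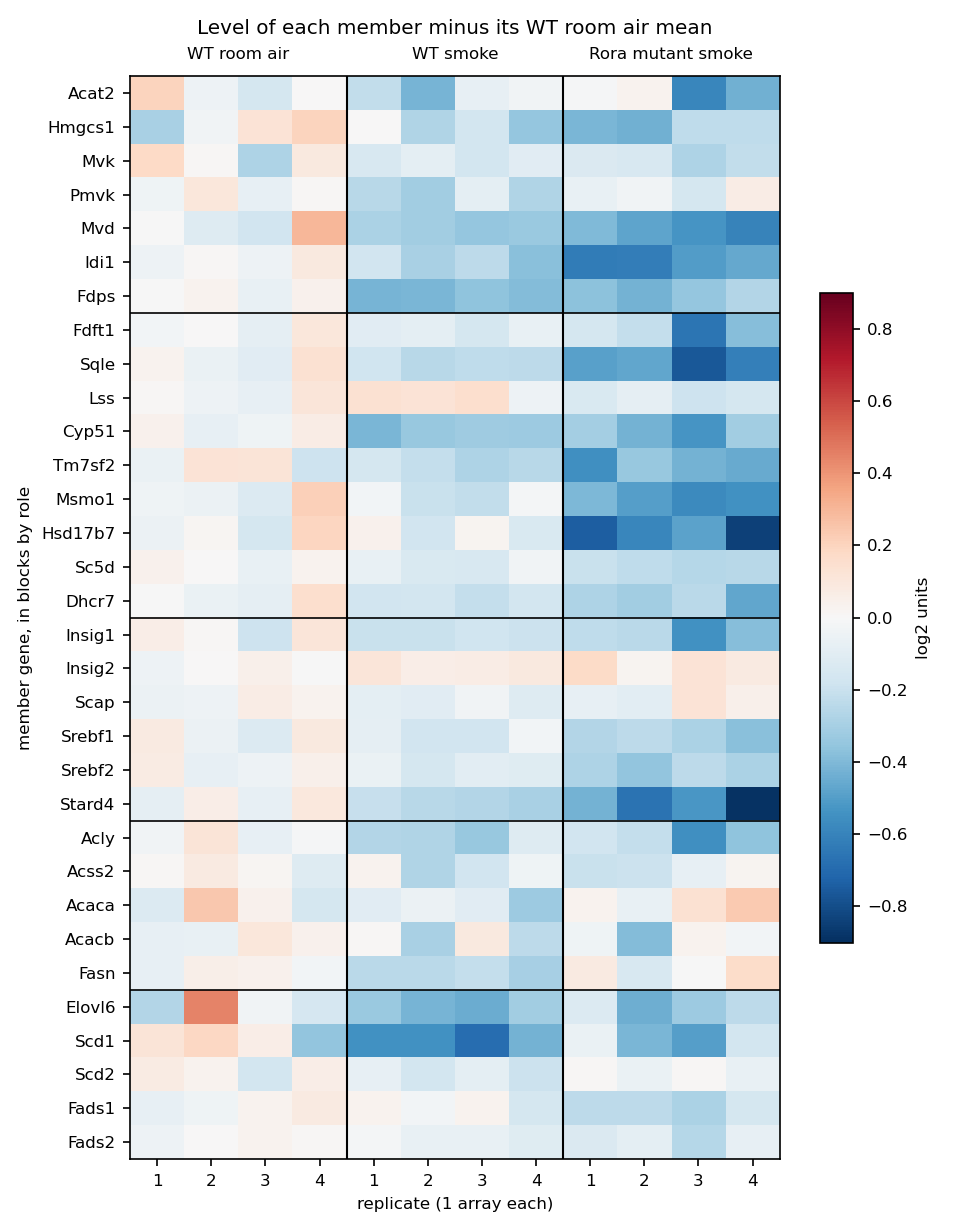
Level of each of the 32 members (rows, in blocks by role) on each of the 12 arrays (columns), minus the gene's mean over the 4 WT room air arrays, in log2 units; blue is lower and red higher. The sterol block is darkest in the 4 mutant columns, while Fasn and Acaca are pale or red there.

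**Figure D2:**
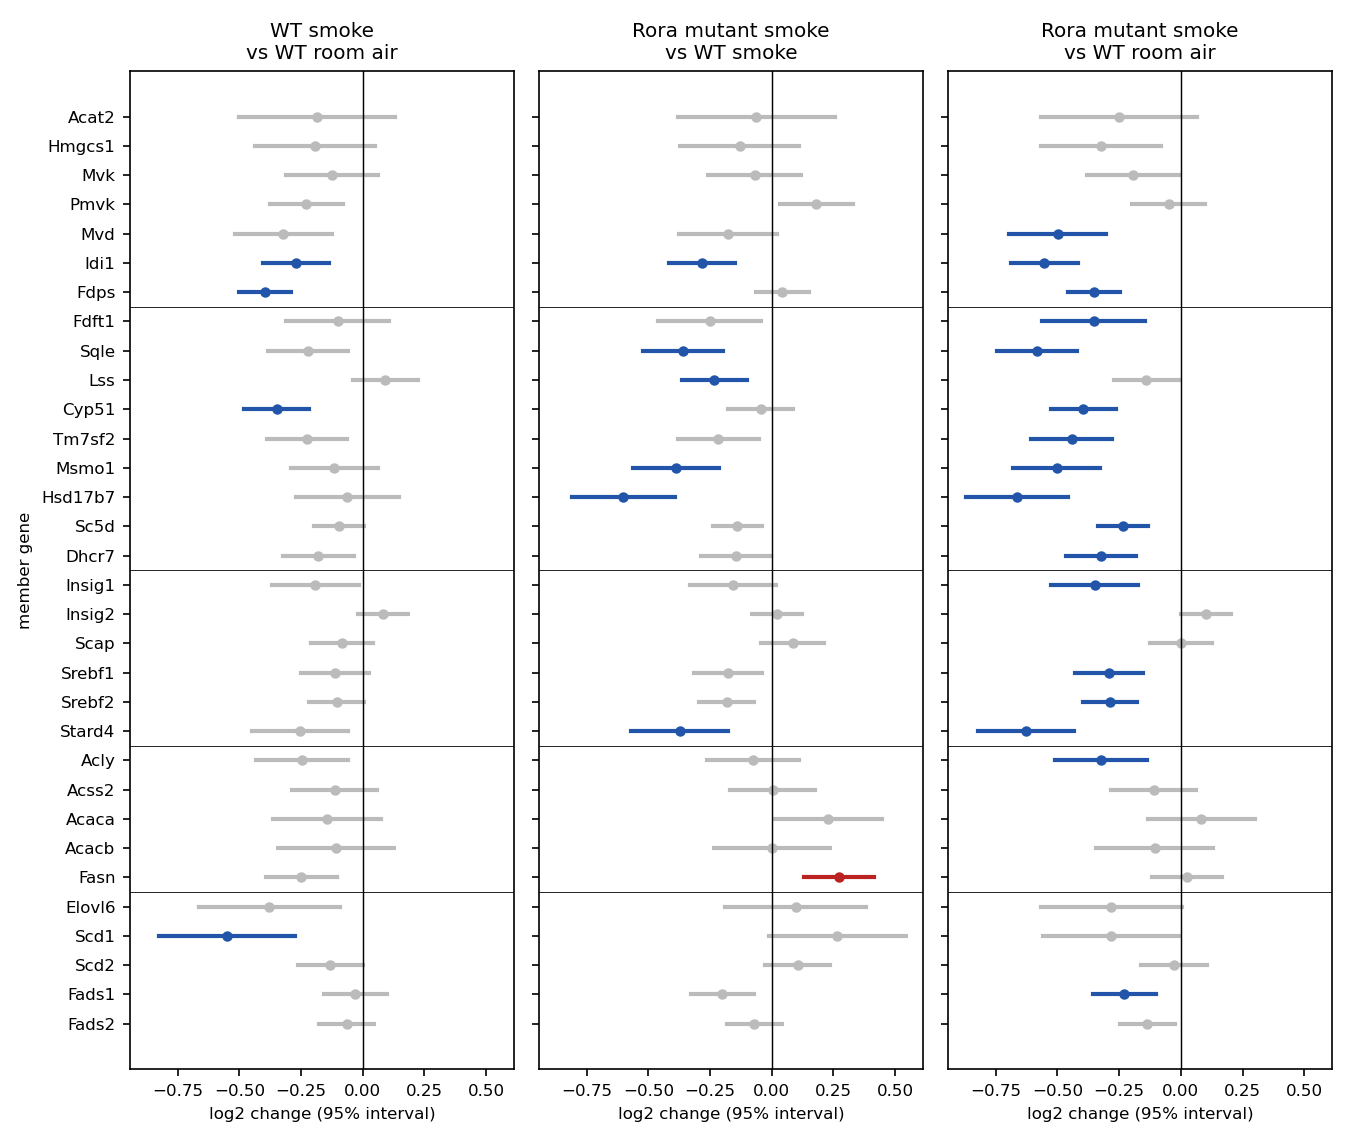
Log2 change of each member (points) with its 95% interval (lines) in the 3 comparisons; blue marks members called lower, red higher and grey not called at an adjusted p of 0.05. There are 4 blue members in smoke against room air, 6 blue and 1 red in mutant against WT smoke, and 17 blue in mutant smoke against room air.

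The mevalonate steps turn acetyl-CoA into farnesyl pyrophosphate. Fdps, the synthase that makes farnesyl pyrophosphate (probe on chromosome 3, 89180817 to 89180957, mm8), read 1.64, 1.67, 1.57 and 1.68 on the room-air arrays, 1.22, 1.23, 1.27 and 1.25 in WT smoke and 1.27, 1.21, 1.29 and 1.37 in mutant smoke. Both smoke groups lay well below room air with no overlap, and the 2 smoke groups overlapped. The change in smoke was -0.40 ± 0.05 (SE, 1.32-fold lower, adjusted p = 0.000846), the smallest adjusted p of any member in that comparison, and the genotype difference was 0.04 ± 0.05 (adjusted p = 0.676). A second Fdps probe (89185031 to 89185090) read otherwise, with -0.12 ± 0.08 in smoke (adjusted p = 0.495) and -0.33 ± 0.08 with genotype (adjusted p = 0.0325); against room air the mutants were lower by both probes.

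Idi1, the isomerase that balances the pair of isoprene building blocks, fell in both steps by its brightest probe. It read 1.98, 2.04, 1.99 and 2.12 in room air, 1.86, 1.74, 1.79 and 1.65 in WT smoke and 1.40, 1.41, 1.53 and 1.57 in mutant smoke, and none of the 3 groups overlapped another. The changes were -0.27 ± 0.06 in smoke (adjusted p = 0.0305) and -0.28 ± 0.06 with genotype (adjusted p = 0.0231), which add to -0.55 ± 0.06 against room air (1.47-fold lower, adjusted p = 0.000206). The first of these calls was lost in 11 and the second in 7 of 24 settings; the last held in all 24. With the slide as a block the 3 adjusted p were 0.0609, 0.0288 and 0.000791. A second, dimmer probe gave -0.21 ± 0.07 in smoke, which did not pass (adjusted p = 0.151), and -0.57 ± 0.07 with genotype (adjusted p = 0.0017). The files place both Idi1 probes on chromosome 2 (53516550 to 53516609 and 53518541 to 53518600, mm8), whereas RefSeq lists Idi1 on chromosome 13; which place their signal comes from was not tested.

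Mvd, the decarboxylase that makes isopentenyl pyrophosphate, was also lower in the mutants than in room air. Its levels were 0.07, -0.04, -0.09 and 0.37 in room air, -0.21, -0.24, -0.27 and -0.26 in WT smoke and -0.32, -0.39, -0.46 and -0.52 in mutant smoke. The 3 groups did not overlap, and the room-air arrays were the most spread. The change from room air to mutant smoke was -0.50 ± 0.09 (adjusted p = 0.00365), while the parts, -0.32 ± 0.09 in smoke and -0.18 ± 0.09 with genotype, did not pass (adjusted p = 0.0705 and 0.289). The remaining 4 genes, Acat2 (acetoacetyl-CoA thiolase), Hmgcs1 (the synthase of hydroxymethylglutaryl-CoA), and the kinases Mvk and Pmvk, passed in no comparison by their brightest probes, with changes in smoke of -0.23 to -0.12. Pmvk was -0.23 ± 0.07 in smoke and 0.18 ± 0.07 with genotype. Hmgcs1 depended on the probe: its brightest gave -0.13 ± 0.11 with genotype (adjusted p = 0.561), while a dimmer probe gave -0.60 ± 0.07 (adjusted p = 0.00128) and the dimmest -0.28 ± 0.13 (adjusted p = 0.248). In mutant smoke against room air the dimmer probe passed, with -0.79 ± 0.07 (adjusted p = 6.75e-05). The brightest gave -0.32 ± 0.11 there and the dimmest -0.40 ± 0.13, and neither passed (adjusted p = 0.0675 and 0.0618).

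The sterol steps, from squalene to cholesterol, held the largest genotype difference of any member by its brightest probe. Hsd17b7, the ketoreductase that works with Msmo1 in removing the methyl groups at carbon 4 (probe on chromosome 1, 171789135 to 171789194, mm8), read 0.03, 0.11, -0.06 and 0.28 in room air, 0.13, -0.08, 0.12 and -0.05 in WT smoke and -0.65, -0.50, -0.39 and -0.75 in mutant smoke. The 2 WT groups overlapped, and every mutant array lay below every WT array. The change was -0.06 ± 0.10 in smoke (adjusted p = 0.8) and -0.60 ± 0.10 with genotype (1.52-fold lower, adjusted p = 0.00551). Within the 3 slides the genotype difference was -0.78, -0.43 and -0.69, and a slide block gave -0.60 (adjusted p = 0.0167); the call was lost in 1 of 24 settings, the normexp correction. Its second probe gave -0.35 ± 0.10 (adjusted p = 0.0726).

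Msmo1, the methylsterol monooxygenase (chromosome 8, 67610377 to 67610436, mm8), had the same order of groups. Levels were 3.12, 3.11, 3.04 and 3.37 in room air, 3.13, 2.96, 2.94 and 3.14 in WT smoke and 2.75, 2.66, 2.59 and 2.61 in mutant smoke; the WT groups overlapped and the mutants stood apart from both. The changes were -0.12 ± 0.08 in smoke (adjusted p = 0.507) and -0.39 ± 0.08 with genotype (adjusted p = 0.0186). The promoter windows of Msmo1 and Hsd17b7 printed above each hold 2 NF-Y boxes.

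Sqle, the squalene epoxidase that opens the sterol branch (chromosome 15, 59160510 to 59160569, mm8), fell with genotype. Its levels were 1.47, 1.37, 1.33 and 1.57 in room air, 1.26, 1.18, 1.21 and 1.20 in WT smoke and 0.95, 0.97, 0.67 and 0.82 in mutant smoke, 3 groups that did not overlap. The genotype difference was -0.36 ± 0.07 (adjusted p = 0.0177), the smoke change -0.22 ± 0.07 (adjusted p = 0.121), and against room air the mutants stood 1.50-fold lower (-0.58 ± 0.07, adjusted p = 0.000455). The genotype calls of Sqle and of Msmo1 were each lost in 3 of 24 settings: the normexp correction, without mutant replicate 4 and without WT smoke replicate 1.

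Cyp51, the lanosterol demethylase (chromosome 5, 4089242 to 4089301, mm8), was called in smoke and not with genotype; the difference between those changes was not tested. It read -1.66, -1.77, -1.74 and -1.63 in room air, -2.12, -2.04, -2.02 and -2.03 in WT smoke and -2.01, -2.13, -2.23 and -2.02 in mutant smoke. The smoke groups overlapped each other and neither overlapped room air. The smoke change was -0.35 ± 0.06 (1.27-fold lower, adjusted p = 0.00727) and the genotype difference -0.05 ± 0.06 (adjusted p = 0.738). Of its other 2 probes, 1 passed in smoke (-0.48 ± 0.08, adjusted p = 0.00473) and the other did not (-0.32 ± 0.10, adjusted p = 0.095). Their genotype differences were -0.22 ± 0.08 and -0.16 ± 0.10, and neither passed (adjusted p = 0.129 and 0.367).

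Lss, the lanosterol synthase, gave probes that disagreed. The brightest (chromosome 10, 76000484 to 76000543, mm8) read 7.59e-06, -0.06, -0.09 and 0.09 in room air, 0.13, 0.11, 0.14 and -0.06 in WT smoke and -0.15, -0.09, -0.20 and -0.17 in mutant smoke. By this probe Lss differed by 0.09 ± 0.06 in smoke, which did not pass (adjusted p = 0.474). It was lower in the mutants than in WT smoke by a small amount, -0.23 ± 0.06 (adjusted p = 0.0448). That call was lost in 17 of 24 settings, the slide block among them. With genotype the other 2 probes gave -0.16 ± 0.06 and -0.19 ± 0.12, and neither passed (adjusted p = 0.174 and 0.403). The other 2 probes lay below room air in smoke, of which the first passed, -0.44 ± 0.06 (adjusted p = 0.00306) and -0.44 ± 0.12 (adjusted p = 0.0576), and both passed as lower in mutant smoke against room air. Lss by its brightest probe was the 1 of 9 sterol genes not called there (-0.14 ± 0.06, adjusted p = 0.138).

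Fdft1, Tm7sf2, Sc5d and Dhcr7 were called in mutant smoke against room air only. Fdft1, squalene synthase, read 0.79, 0.82, 0.74 and 0.92 in room air, 0.72, 0.73, 0.66 and 0.75 in WT smoke and 0.66, 0.60, 0.15 and 0.43 in mutant smoke. Mutant replicate 3 was the lowest and the most distant, and the call (-0.35 ± 0.09, adjusted p = 0.0258) was lost in 6 of 24 settings. A second, dimmer Fdft1 probe gave -0.53 ± 0.30 against room air and did not pass (adjusted p = 0.258). Tm7sf2, a sterol reductase, read 0.55, 0.73, 0.72 and 0.42 in room air, 0.44, 0.39, 0.32 and 0.36 in WT smoke and 0.05, 0.26, 0.18 and 0.15 in mutant smoke, a change of -0.44 ± 0.07 (adjusted p = 0.00252). Room air and mutant smoke did not overlap, and the spread was widest in room air.

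Sc5d, the sterol desaturase, showed a small change and tight groups: 1.85, 1.82, 1.75 and 1.84 in room air, 1.75, 1.68, 1.67 and 1.78 in WT smoke and 1.61, 1.58, 1.56 and 1.57 in mutant smoke. The mutants stood -0.23 ± 0.05 from room air (adjusted p = 0.00587) and -0.14 ± 0.05 from WT smoke (adjusted p = 0.105). The second Sc5d probe gave 0.01 ± 0.10 with genotype, and -0.27 ± 0.10 against room air, which did not pass (adjusted p = 0.0814). Sc5d (42005769 to 42005828) and Scap (110229943 to 110230002) are the members on chromosome 9, 27.2 and 41.1 Mb from the Rora probe on mm8. Dhcr7, which reduces 7-dehydrocholesterol to cholesterol, read 1.65, 1.60, 1.57 and 1.81 in room air, 1.48, 1.49, 1.44 and 1.50 in WT smoke and 1.38, 1.35, 1.41 and 1.19 in mutant smoke. The 3 groups were ordered without overlap, and the change over both was -0.32 ± 0.07 (adjusted p = 0.0065). Dhcr7 is the member with the TAGGTCA match; its genotype difference was -0.14 ± 0.07 and did not pass (adjusted p = 0.23).

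**Figure D3:**
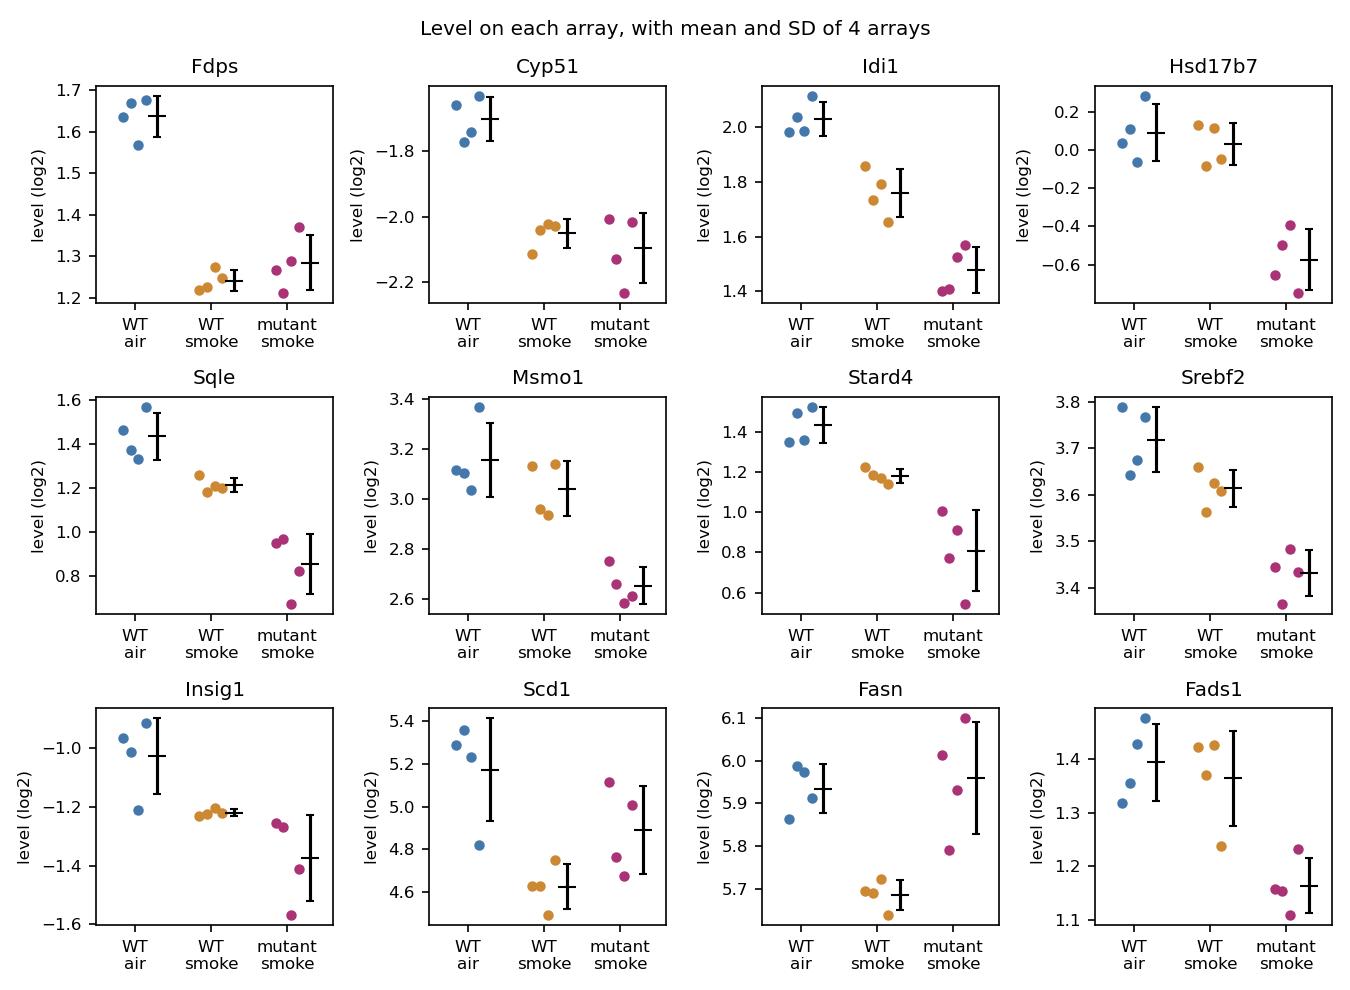
Level of 12 members on each array (points, log2 over the 75th percentile of the array), with the mean and SD of the 4 arrays of each group in black; each panel has its own axis. Fdps and Cyp51 are lower in both smoke groups, Hsd17b7 and Msmo1 in the mutants, and Fasn is lowest in WT smoke.

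Among the regulators, the SREBP genes were lower in the mutants than in room air, and the genes for its escort Scap and its anchor Insig2 were called in no comparison. Srebf2, which encodes the SREBP of the cholesterol genes, read 3.79, 3.64, 3.68 and 3.77 in room air, 3.66, 3.56, 3.63 and 3.61 in WT smoke and 3.44, 3.36, 3.48 and 3.43 in mutant smoke. Every mutant array lay below every WT array, and the WT groups overlapped. The genotype difference was -0.18 ± 0.05 and narrowly missed the threshold (adjusted p = 0.0571); it passed in 5 of 24 settings, the slide block among them (adjusted p = 0.0417), and against room air the change was -0.29 ± 0.05 (adjusted p = 0.00313). Of its other 3 probes, 1 also passed there, and their genotype differences were -0.26, -0.17 and 0.02. Srebf1, which encodes the SREBP of the fatty acid genes, read 4.61, 4.47, 4.41 and 4.62 in room air, 4.44, 4.35, 4.35 and 4.50 in WT smoke and 4.26, 4.29, 4.24 and 4.15 in mutant smoke. All 4 mutant arrays lay below the WT arrays, with -0.18 ± 0.06 for genotype (adjusted p = 0.126) and -0.29 ± 0.06 against room air (adjusted p = 0.00936). The probes do not separate the isoforms of Srebf1, which has a single kept probe.

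Insig1, itself a target of SREBP, read -0.97, -1.01, -1.21 and -0.91 in room air, -1.23, -1.22, -1.20 and -1.22 in WT smoke and -1.26, -1.27, -1.57 and -1.41 in mutant smoke. The WT smoke arrays were nearly equal, room air replicate 3 lay at their level, and the change from room air to mutant smoke passed (-0.35 ± 0.08, adjusted p = 0.0127). The second, dimmer Insig1 probe gave -0.27 ± 0.11 there and did not pass (adjusted p = 0.115). Insig2 read 1.92, 1.97, 2.01 and 1.96 in room air, 2.07, 2.02, 2.03 and 2.05 in WT smoke and 2.14, 1.99, 2.09 and 2.05 in mutant smoke. Its changes were 0.02 to 0.10 and none passed, while its other probe gave -0.29 ± 0.08 with genotype (adjusted p = 0.0701). Scap read 3.17, 3.17, 3.29 and 3.25 in room air, 3.14, 3.12, 3.19 and 3.10 in WT smoke and 3.15, 3.13, 3.34 and 3.26 in mutant smoke; the groups overlapped and the difference between mutant smoke and room air had a 95% interval of -0.13 to 0.13.

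Stard4, a soluble carrier of cholesterol between membranes and an SREBP target, was the only gene of regulation and transport called with genotype. It read 1.35, 1.50, 1.36 and 1.53 in room air, 1.23, 1.19, 1.17 and 1.14 in WT smoke and 1.01, 0.77, 0.91 and 0.54 in mutant smoke, with no overlap between any of the 3 groups. The brightest probe gave -0.25 ± 0.09 in smoke (adjusted p = 0.142), -0.37 ± 0.09 with genotype (adjusted p = 0.0328) and -0.63 ± 0.09 in sum (1.54-fold lower, adjusted p = 0.000907). The genotype call was lost in 12 of 24 settings, the slide block among them, and the last in 0. Its other 2 probes, both dimmer, had their fall in the other step: they passed in smoke with -0.46 ± 0.09 and -0.54 ± 0.10 (adjusted p = 0.0132 and 0.0146) and gave -0.09 ± 0.09 and -0.03 ± 0.10 with genotype.

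Among the genes of acetyl-CoA and fatty acid synthesis, 1 was higher with genotype and none was lower. Fasn, the fatty acid synthase (chromosome 11, 120623236 to 120623295, mm8), read 5.86, 5.99, 5.97 and 5.91 in room air, 5.69, 5.69, 5.72 and 5.64 in WT smoke and 6.01, 5.79, 5.93 and 6.10 in mutant smoke. WT smoke was lowest, with no overlap with either of the other groups, and room air and mutant smoke overlapped. The change in smoke was -0.25 ± 0.07 (adjusted p = 0.053, not passed; it passed in 8 of 24 settings), and the mutants were 1.21-fold higher than WT in smoke (0.27 ± 0.07, adjusted p = 0.0328). A second probe (120622442 to 120622501) passed both ways, -0.54 ± 0.07 in smoke (adjusted p = 0.00136) and 0.35 ± 0.07 with genotype (adjusted p = 0.0179). The 2 differences share the WT smoke arrays, so a low value there enters both. Between mutant smoke and room air Fasn differed by 0.02 ± 0.07, with a 95% interval of -0.12 to 0.17.

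Acly, the ATP citrate lyase that supplies acetyl-CoA, was lower in the mutants than in room air. It read 1.38, 1.53, 1.34 and 1.40 in room air, 1.15, 1.14, 1.08 and 1.30 in WT smoke and 1.24, 1.20, 0.87 and 1.06 in mutant smoke. Both smoke groups lay below room air, the smoke groups overlapped, and the change from room air to mutant smoke passed (-0.32 ± 0.09, adjusted p = 0.0241; lost in 4 of 24 settings). Acss2, which activates acetate, and the acetyl-CoA carboxylases Acaca and Acacb passed in no comparison. Acaca was -0.15 ± 0.10 in smoke and 0.23 ± 0.10 with genotype (adjusted p = 0.496 and 0.213); the genotype differences of its other 3 probes were -0.20, 0.22 and -0.21. Genotype differences of Acss2 and Acacb were 0.00 each, with 95% intervals of -0.17 to 0.18 and -0.23 to 0.24.

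Scd1, the desaturase that makes oleate and palmitoleate (chromosome 19, 44448208 to 44448267, mm8), had the largest smoke change of the members by their brightest probes. It read 5.29, 5.36, 5.23 and 4.82 in room air, 4.63, 4.63, 4.49 and 4.75 in WT smoke and 5.11, 4.76, 4.68 and 5.01 in mutant smoke. WT smoke lay below room air without overlap, and the mutants overlapped both. The smoke change was -0.55 ± 0.13 (1.46-fold lower, adjusted p = 0.0314), a call lost in 10 of 24 settings, with the slide as a block among them (-0.56, adjusted p = 0.0637). The genotype difference was 0.27 ± 0.13 (adjusted p = 0.256). Room air replicate 4 and WT smoke replicate 4 were nearly equal. The adipocyte markers given below ranged widely within WT smoke. Scd1 had an SD of 0.11 there, against 0.24 in room air and 0.20 in mutant smoke. A link between Scd1 and those markers was not tested.

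Fads1, the delta-5 desaturase of polyunsaturated fatty acids, was lower in the mutants than in room air. It read 1.32, 1.35, 1.43 and 1.48 in room air, 1.42, 1.37, 1.43 and 1.24 in WT smoke and 1.16, 1.15, 1.11 and 1.23 in mutant smoke. The WT groups overlapped and the mutants lay below both, with -0.20 ± 0.06 for genotype (adjusted p = 0.0682) and -0.23 ± 0.06 against room air (adjusted p = 0.0205). Fads2, the delta-6 desaturase, differed by -0.14 ± 0.05 between mutant smoke and room air and did not pass (adjusted p = 0.0945). Elovl6, which elongates palmitate, was -0.38 ± 0.13 in smoke (adjusted p = 0.135); room air replicate 2 read -0.26 there and the other 11 arrays -1.15 to -0.74. Scd2, the second desaturase, stayed within 0.13 log2 units of room air in both smoke groups by its mean.

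**Figure D4:**
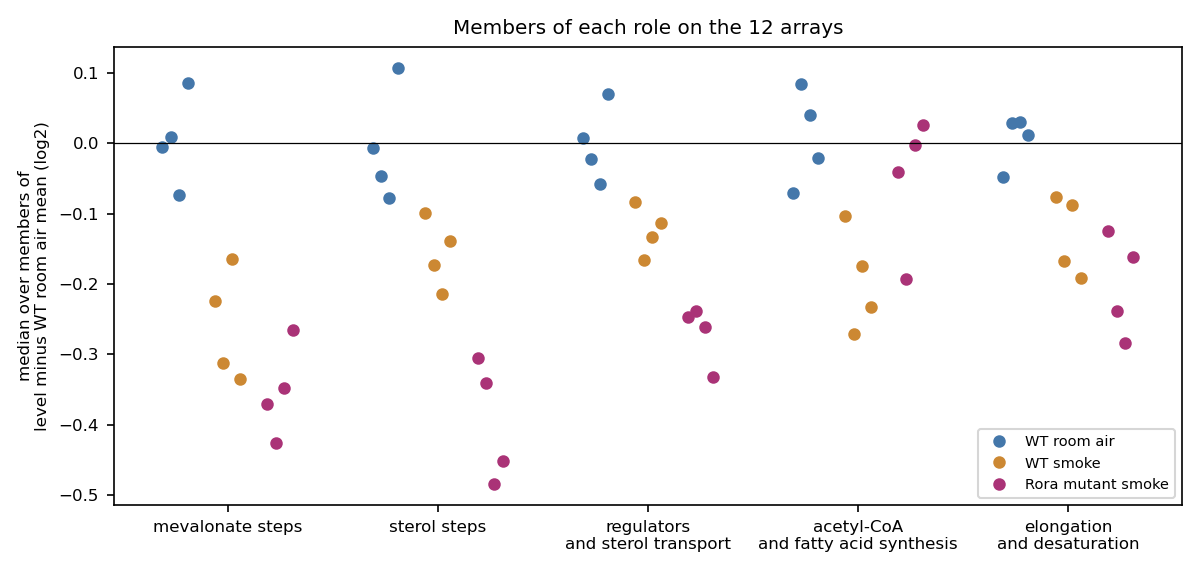
Median over the members of each role of the level minus the WT room air mean (log2), on each of the 12 arrays (points). For the 9 sterol genes the medians are -0.08 to 0.11 in room air, -0.21 to -0.10 in WT smoke and -0.48 to -0.30 in mutant smoke; for the 5 genes of acetyl-CoA and fatty acid synthesis the mutants lie at -0.19 to 0.03.

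Medians over a role summarise each array. Over the 6 genes of regulation and transport they were -0.06 to 0.07 in room air, -0.17 to -0.08 in WT smoke and -0.33 to -0.24 in mutant smoke. Over the 7 mevalonate genes they were -0.07 to 0.09, -0.34 to -0.16 and -0.43 to -0.27. For acetyl-CoA and fatty acid synthesis, WT smoke had -0.27 to -0.10 and overlapped the mutants; for elongation and desaturation, WT smoke had -0.19 to -0.08 and the mutants -0.28 to -0.13. No test was made of these medians, since the members were chosen with results known.

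Other probes of the same genes gave a measure of how far these values depend on the probe. Of 61 kept member probes, 29 were not the brightest of their gene, and 20 members had more than 1. Their direction was that of the brightest probe for 26 of 29 in smoke, 21 of 29 with genotype and 25 of 29 in mutant smoke against room air. In a fit of all 30189 probes, 5 of the 29 passed as lower in smoke, 3 as lower and 1 as higher with genotype, and 13 as lower in mutant smoke against room air; the shares of all probes that passed were 4.07%, 5.83% and 16.3%.

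**Figure D5:**
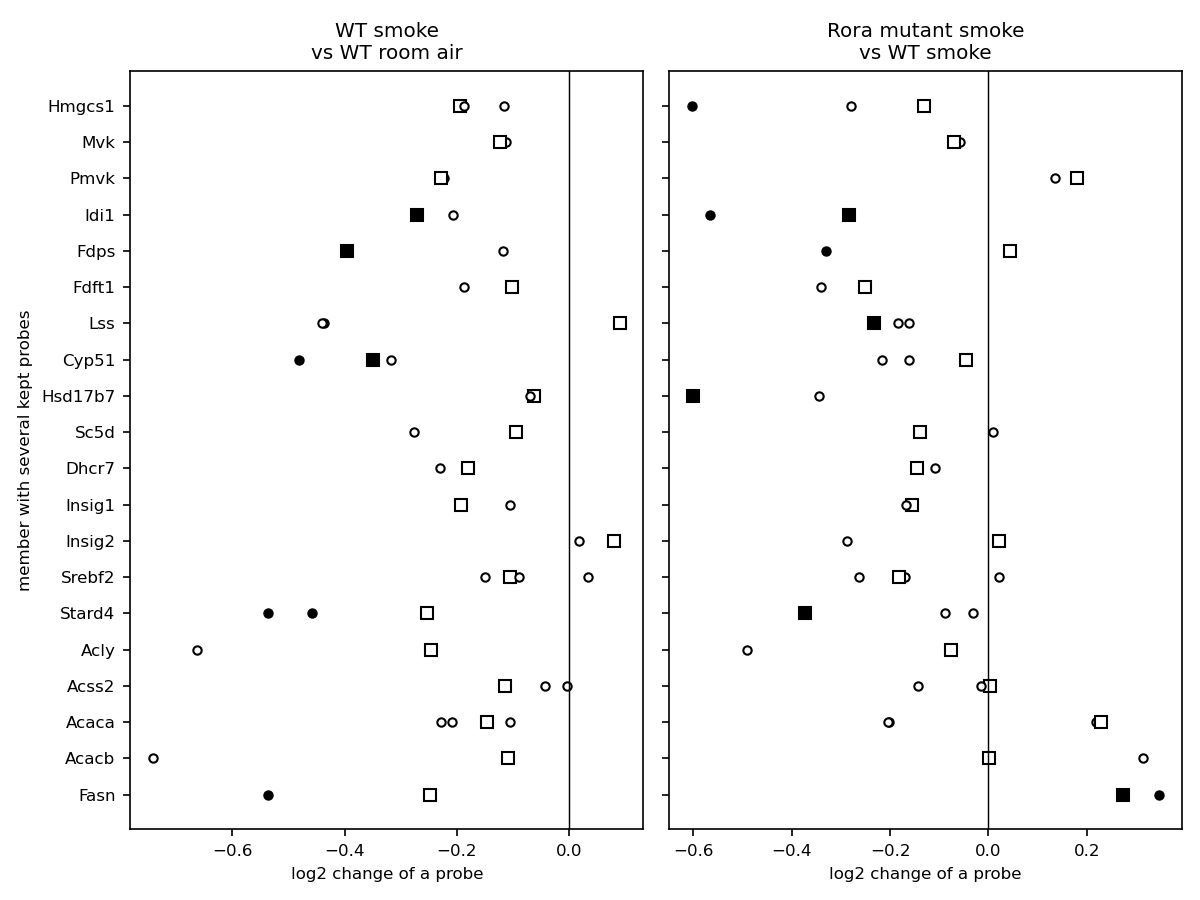
Log2 change of each kept probe of the 20 members with several probes, in smoke against room air (left) and mutant against WT smoke (right); squares are the brightest probe of a gene, circles the others, and filled symbols passed at an adjusted p of 0.05 over all probes. Lss has its brightest probe at 0.09 and the other 2 at -0.44 on the left, and Fdps has 0.04 and -0.33 on the right.

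Genes around the pathway were read from a wider list. Of 56 such genes, 55 were measured (Elovl3 was not kept). In smoke 4 of the 55 were called (4.86% of all genes), with genotype 4 of 55 (6.04%), and between mutant smoke and room air 13 of 55 (16.7%). Of the smoke calls 1 was higher and 3 were lower: Ch25h, the cholesterol 25-hydroxylase, by 0.64 ± 0.13 (SE), Aacs, acetoacetyl-CoA synthetase, by -0.43 ± 0.08, Thrsp, an activator of lipogenesis, by -1.13 ± 0.27, and Mlxipl, the carbohydrate-responsive factor ChREBP, by -0.27 ± 0.07. With genotype 3 were higher and 1 was lower, all among the 13 genes of efflux, storage and uptake: the cholesterol ester hydrolase Nceh1 by 0.31 ± 0.05, the efflux transporter Abcg1 by 0.34 ± 0.06, the lysosomal carrier Npc2 by 0.27 ± 0.07, and the oxysterol hydroxylase Cyp7b1 by -0.36 ± 0.09. Their adjusted p were 0.00602, 0.0105, 0.0444 and 0.0305. Those 13 genes had a median genotype change of 0.16, and 10 of them lay above 0, against -0.10 for the members. The 20 other synthesis genes measured had a median genotype change of -0.02, with 12 below 0 and 8 above. Of these 20, 0 passed in limma with genotype (3 higher and 1 lower at an unadjusted p under 0.05). In smoke their median was -0.08, with 16 of 20 below 0. In mutant smoke against room air 8 of the 55 were higher and 5 lower, with Nceh1, Ch25h, Abcg1 and Cyp7b1 at the smallest p (0.45, 0.97, 0.45 and -0.61). Of 11 genes of sterol sensing and SREBP processing, 0 passed in limma in smoke or with genotype (1 and 2 at an unadjusted p under 0.05), and of 11 genes of glycerolipid assembly 0 passed in the same 2 comparisons (1 and 4).

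Markers of several cell types moved with the groups, and their part in the results above was not tested. Over all genes 2.48% were called higher and 3.56% lower with genotype, 2.55% lower in smoke and 10.0% lower in mutant smoke against room air. With genotype, 6 of 9 measured alveolar macrophage markers were higher, and the summed level of the list ran from 6.48 to 6.69 in WT smoke and from 6.89 to 7.52 in the mutants. Of 7 measured adipocyte markers 3 were higher in the mutants (Retn, Cidec and Fabp4); the sum ran from 4.61 to 5.17 in room air, 3.93 to 5.14 in WT smoke and 5.09 to 5.47 in the mutants, beside the Fasn and Scd1 values given above. Adipoq and Plin1 were well above background on all 12 arrays, and Lep on 0 of 4, 0 of 4 and 2 of 4. The 12 alveolar type 2 markers overlapped between the groups in sum, at 9.88 to 10.15, 9.58 to 10.25 and 9.91 to 10.00. Signals were added before the log2 step, so the brightest markers weigh most in every such sum. Among these 12 the brightest is Sftpc, with a mean of 9.30 in room air. In limma 0 passed with genotype (6, all higher, at an unadjusted p under 0.05), while 4 were lower in smoke (Sftpa1, Sftpd, Lamp3 and Muc1). By direction, 11 of 12 lay below 0 in smoke and 11 of 12 above 0 with genotype. Goblet markers were lower in smoke for 6 of 6 and with genotype for 3 of 6, with sums of 3.46 to 5.24, 1.11 to 1.95 and 0.45 to 0.78. Of 6 ciliated markers 1 was lower with genotype and 5 were lower in mutant smoke than in room air, with sums of 3.90 to 4.05, 3.63 to 4.05 and 3.50 to 3.60. Of 5 cycling markers 3 were lower in smoke, with sums of 0.60 to 0.97, 0.22 to 0.40 and 0.23 to 0.78. Of 5 lipofibroblast markers 1 was higher (Plin2) and 1 lower (Npnt) with genotype, and of 4 endothelial markers 1 was lower (Kdr). All 5 club markers lay below 0 with genotype, where 0 passed in limma (2, both lower, at an unadjusted p under 0.05), and 2 of 5 were lower in mutant smoke than in room air. Of 4 heart muscle markers 0 passed with genotype (3, all higher, at an unadjusted p under 0.05), but their sums did not overlap, at 5.64 to 6.18 in WT smoke and 6.25 to 6.54 in the mutants, with 6.10 to 6.50 in room air.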

How the data were processed

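Single-colour arrays of whole-lung RNA (100 ng, Cy3) were analysed from the deposited scanner tables. Per the file headers and the submitters' processing notes, the authors' scanner software, Agilent Feature Extraction 9.5.3.1, made the background-subtracted processed intensities; probe coordinates are those of mm8. The authors' deposited value table holds log2 values whose columns share a median of 6.79, so its scale is log2 and its arrays are equalised; its lowest correlation with the scanner values of the same array was 0.999524, and it served as an alternative.

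Control spots and outlier-flagged spots were left out and spots of a probe averaged. Each log2 signal was reduced by the log2 75th percentile of its array. A probe was kept if at least 4 arrays showed it well above background and each group had values on 3 arrays or more (30189 of 41174). The brightest probe stood for its gene, giving 19823 genes; 8062 probes carry the file's own gene name and the rest a RefSeq symbol. The 3 comparisons were fitted with limma 3.58.1 (R 4.3.3; lmFit and eBayes, 3 groups in 1 fit), with Benjamini-Hochberg adjustment over all genes and a threshold of 0.05. SE values and 95% intervals come from this fit. The fit was tested on simulated data. Arrays were assigned to groups by their titles, with no paper used; if replicates are not separate mice, p-values measure technical spread. The number of arrays limits the precision.

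Values by array are given for members called in at least 1 comparison by their brightest probe and for Srebf1, Srebf2, Scap, Insig1 and Insig2 in any case; of the wider lists, the 4 called genes with the smallest p per comparison are named. The members and lists were chosen with earlier results of these data known. Alternatives were normexp correction, quantile normalization, other scales, filters, probe rules, slide and replicate blocks, fewer groups and single arrays left out. Promoters were read from RefSeq (GRCm38.p6); exon positions of probes were not used here. Replicate numbers 1 to 3 go with slides 1 to 3, but did not pair the arrays by their values (correlations of deviations -0.0967 to 0.224).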

Additional observations from a re-analysis of the deposited data

Results flagged for a closer look

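Of 96 sets of 4 arrays (each member in each group), 1 held an array far from the others: Lss, lanosterol synthase, in WT smoke. Replicate 4 read -0.0597782, against 0.11 to 0.14 on the other 3 arrays, within the room-air range. The test is expected to mark about 5% of such sets by chance, and it marked 1.04%. This is the brightest Lss probe, whose smoke change differed in sign from that of the other Lss probes.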

How the results depend on the processing

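Direction held for every called member and for the member medians in all settings run. The count of members lower in smoke, 4, was 0 with normexp correction, 2 with no filter on dim probes, 2 with the slide as a fixed block, 2 with the replicate block, 7 with the mean of all kept probes, 7 with trend and robust eBayes, and 2 to 5 with single arrays left out. With genotype the count of higher members, 1, was 0 with normexp, quantile normalization, the authors' value table, no filter, the slide block, the replicate block or only 2 groups, and 0 to 1 with single arrays left out. The count of lower members with genotype, 6, was 0 with normexp, 3 with the replicate block, 3 with only 2 groups (fewer arrays), and 1 to 6 with single arrays left out. In mutant smoke against room air the 17 lower members were 4 with normexp and 15 to 18 with single arrays left out. Normexp also left 13 genes of all genes lower in smoke, of 506, and moved the median of all genes by up to 0.10 between the 2 smoke groups; the cause was not tested. The genes of all genes called lower in smoke were 335 with the slide block, 332 with the replicate block and 270 with no filter. Replicates 1, 2 and 3 of all groups shared a slide and replicate 4 did not; deviations of same-numbered arrays did not correlate in every pair, so the replicate block is an alternative only. All members were well above background on every array.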
